A study of Mus musculus with 6 samples.

Results

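The mRNAs of the mouse IgG receptors (Fc gamma receptors), of their adaptors and of their first kinase were measured by RNA-seq in CD8T cells that had been cocultured with control or DB2313-treated cells. The genes were the 4 Fc gamma receptors Fcgr1, Fcgr2b, Fcgr3 and Fcgr4, the adaptors Fcer1g and Tyrobp, and the kinase Syk. They were chosen by name, and all 7 were found once among the 54532 genes of the deposited count table. All 7 passed the filter on low counts, which left 14883 genes for testing. The labels call the samples primary T cells, and the study's methods state that CD8T cells were isolated from mouse spleen and stimulated with beads carrying antibodies to CD3 and CD28. In both groups the T cells spent 24 hr with partner cells, which the methods describe as thioglycolate-elicited peritoneal macrophages activated with IFN-γ at 10 ng/mL for 12 hr. The sample titles hold the letters DC, which may or may not name the partner cells, so the partner cell type is not fully settled by the sources. DB2313 is an inhibitor of the transcription factor Spi1, also called PU.1. The partner cells of the DB2313 group received it at 14 nM, and those of the control group received none. Each group had 3 samples, and nothing states whether these were separate cultures or animals, so the p-values measure only the spread between these samples.

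Fc gamma receptors bind the constant part of IgG on immune complexes and on coated particles. The activating receptors Fcgr1, Fcgr3 and Fcgr4 pair with the Fcer1g chain, whose cytoplasmic tail carries an ITAM, a short tyrosine motif. When it is phosphorylated by Src family kinases, the ITAM recruits Syk, which starts phagocytosis, cytokine release and an oxidative burst. Fcgr2b carries an inhibitory motif in its own tail and dampens these signals. Tyrobp, also called DAP12, is a second ITAM adaptor that serves Trem and other receptors. These genes are known from macrophages, monocytes, neutrophils and dendritic cells, and most T cells express little of them.

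Library totals ranged from 16611975 to 18596217 counts. The chi-square of the counts per gene was 2.48 to 3.81 between libraries of a group and 46.9 to 50.5 between libraries of different groups, so no library stood apart within its group. All 20 T cell markers were higher in the DB2313 group (quasi-likelihood test of edgeR, adjusted by Benjamini-Hochberg), and they took 0.340% to 0.346% of the counts in control libraries and 0.545% to 0.558% in DB2313 libraries. Of the 20 macrophage markers, 17 were tested, and 16 of these were lower and 1, Marco, was higher. Together the macrophage markers took 1.33% to 1.35% of the counts in control libraries and 0.558% to 0.568% in DB2313 libraries, and Vsig4 had 0 counts in every library. Neutrophil markers were lower for 8 of 9 genes (median log2 fold change -1.55) and higher for 1, past 2-fold but not called in DESeq2. Dendritic cell markers were lower for 7 of 9 and higher for 1 (median -0.52). Mast cell or basophil markers were lower for 3 of 9 tested and higher for 4 (median 0.10). B cell markers were higher for 6 of 9 genes and lower for 1. NK cell markers were higher for 5 of 6 tested and platelet markers for 5 of 6, with 0 lower in either list. These directions are those after TMM scaling. Scaling to the summed T cell markers left 16 macrophage markers lower and none higher, and called 3 T cell markers higher and 4 lower. The T cell markers set this scale, so their own balance under it is no check on their rise. Of all 14883 tested genes, 11514 were called lower and 166 higher under it. This scaling called 3 B cell markers lower and 1 higher, and 7 mast cell or basophil markers lower and 0 higher. It called 2 platelet markers in each direction and no NK cell marker. The libraries therefore held RNA with markers of both T cells and myeloid cells. In such bulk RNA, fewer cells of a type and less RNA per cell cannot be told apart.

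All 7 genes were lower in the DB2313 group, and none was higher. The falls were unequal. Tyrobp and Syk fell most, by 48.5% and 44.8% of the control level, and Fcgr3, Fcer1g and Fcgr1 fell by 38.4%, 34.4% and 32.6%. Fcgr2b and Fcgr4 fell by only 9.11% and 8.44%. The call at an adjusted p under 0.05 was met by 7 of 7 genes, whereas 45.4% of all tested genes were called in either direction, 24.6% lower and 20.8% higher. None of the 7 passed the additional 2-fold threshold in edgeR, whether with the adjusted or the unadjusted p, and none did in DESeq2. Of all tested genes, 5.3% passed it on the lower side and 1.37% on the higher side. Their median log2 fold change was -0.61, and that of all tested genes was 0.02. In each of the 7 the control and DB2313 libraries did not overlap, which was so for 53.1% of tested genes in either direction, 27.5% on the lower side and 25.6% on the higher side. The 7 genes together took 0.176% to 0.181% of the counts in control libraries and 0.116% to 0.124% in DB2313 libraries.

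**Figure D1:**
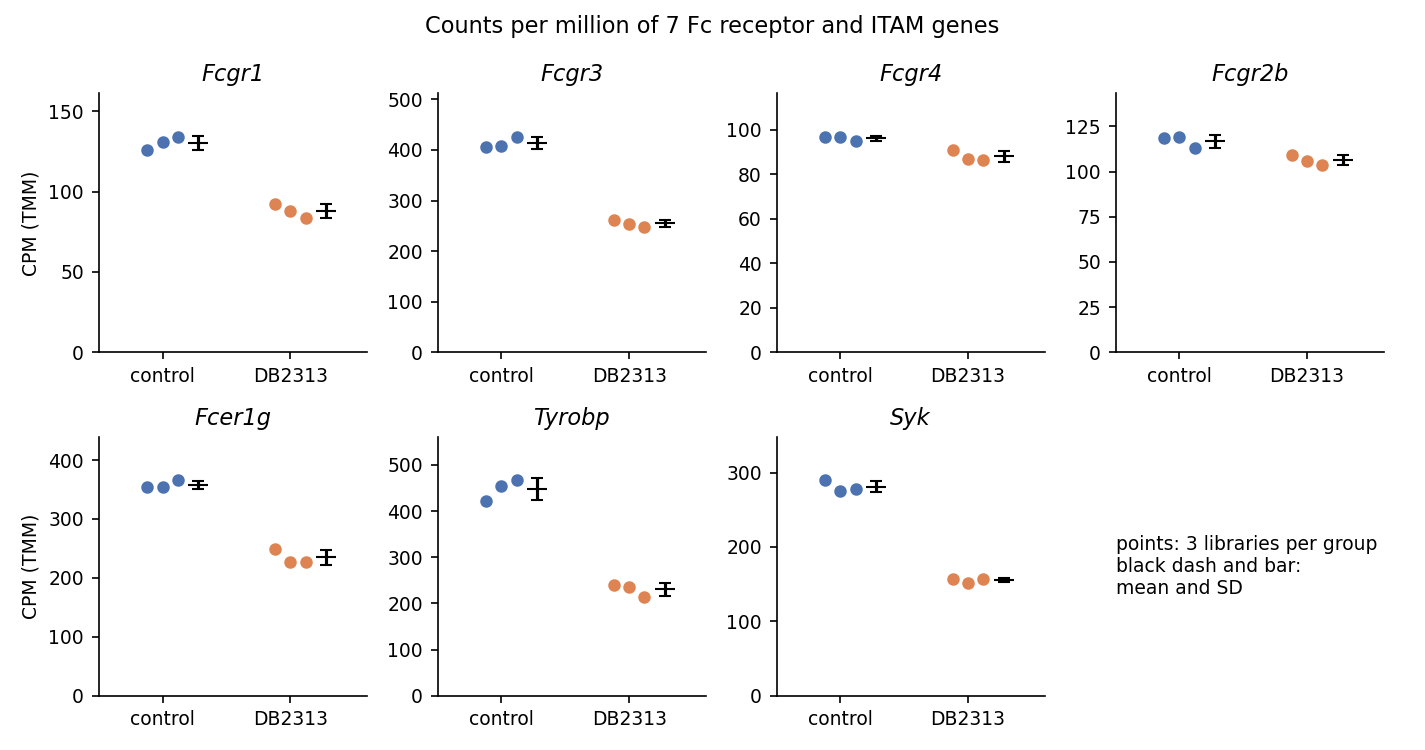
CPM (counts scaled to a common library size by TMM) of each gene in the 3 control and 3 DB2313 libraries, with 1 panel per gene, 1 point per library, and the mean and SD beside the points. The control points lie above the DB2313 points in all 7 panels, with wide gaps for Tyrobp and Syk and narrow ones for Fcgr2b and Fcgr4.

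The activating receptors were led by Fcgr3, a low-affinity receptor for IgG immune complexes (ENSMUSG00000059498, GRCm38, minus strand of chromosome 1, 171051174 to 171064935). Its level was 406.6, 407.6 and 426.5 CPM in the control libraries and 262.1, 253.5 and 248.5 CPM in the DB2313 libraries. Every DB2313 library lay well under the lowest control library. The log2 fold change was -0.70 (SE 0.03, 95% interval -0.77 to -0.63, edgeR adjusted p = 4.86e-14). Raw counts were 6981 to 7337 in the controls and 4325 to 4841 with DB2313.

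Fcgr1, the high-affinity IgG receptor, is the only one of the 4 receptors outside the chromosome 1 cluster (ENSMUSG00000015947, minus strand of chromosome 3, 96282909 to 96293969). It reached 125.6, 131.1 and 134.2 CPM in the control libraries and 92.2, 87.7 and 83.3 CPM in the DB2313 libraries. The groups were again fully separated. This was a log2 fold change of -0.57 (SE 0.04, 95% interval -0.66 to -0.48, edgeR adjusted p = 1.88e-10).

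Fcgr4, an activating receptor for mouse IgG2a and IgG2b, hardly moved (ENSMUSG00000059089, plus strand of chromosome 1, 171018920 to 171029761). Its level was 96.6, 96.8 and 94.9 CPM in the control libraries and 91.0, 86.7 and 86.3 CPM in the DB2313 libraries. The lowest control library stood just above the highest DB2313 library. The log2 fold change was -0.13 (SE 0.04, 95% interval -0.22 to -0.04, edgeR adjusted p = 0.0184). The call was lost in DESeq2 (adjusted p = 0.0698), under scaling to the library size (-0.033, edgeR adjusted p = 0.548) and under upper quartile scaling (-0.063, edgeR adjusted p = 0.233). It was also lost without control replicate 1, control replicate 2, DB2313 replicate 2 or DB2313 replicate 3, each left out alone, where the log2 fold change lay between -0.12 and -0.11.

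Fcgr2b, the inhibitory receptor, behaved like Fcgr4 (ENSMUSG00000026656, minus strand of chromosome 1, 170958617 to 170976547). It reached 118.4, 119.4 and 112.8 CPM in the control libraries and 109.1, 105.8 and 103.8 CPM in the DB2313 libraries. The gap between the groups was again small. On the log2 scale the change was -0.14 (SE 0.04, 95% interval -0.22 to -0.05, edgeR adjusted p = 0.00808). The call was lost under scaling to the library size (-0.043, edgeR adjusted p = 0.397), under upper quartile scaling (-0.074, edgeR adjusted p = 0.139) and without control replicate 2 (-0.12, edgeR adjusted p = 0.055).

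Of the adaptors, Tyrobp had the largest fall of the 7 genes (ENSMUSG00000030579, plus strand of chromosome 7, 30413760 to 30417585). Its level was 420.9, 453.7 and 467.1 CPM in the control libraries and 240.0, 236.2 and 214.1 CPM in the DB2313 libraries. All DB2313 libraries lay far under the control libraries. The log2 fold change was -0.96 (SE 0.04, 95% interval -1.05 to -0.87, edgeR adjusted p = 8.03e-15). Fcer1g, the ITAM chain of the activating Fc gamma receptors and of the mast cell IgE receptor, fell less (ENSMUSG00000058715, minus strand of chromosome 1, 171229572 to 171234365). It reached 353.5, 354.3 and 366.0 CPM in the control libraries and 249.8, 227.6 and 226.7 CPM in the DB2313 libraries. DB2313 replicate 1 was the highest of its group and still lay far under the control libraries. Its change was -0.61 on the log2 scale (SE 0.04, 95% interval -0.69 to -0.53, edgeR adjusted p = 3.88e-12).

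Syk, the kinase that docks on phosphorylated ITAMs (ENSMUSG00000021457, plus strand of chromosome 13, 52583173 to 52648792), was measured at 289.9, 275.8 and 277.7 CPM in the control libraries and at 156.4, 151.9 and 157.6 CPM in the DB2313 libraries. The DB2313 libraries were tightly grouped and well under the control group. The log2 fold change was -0.86 (SE 0.04, 95% interval -0.93 to -0.78, edgeR adjusted p = 1.88e-15). Tyrobp, Syk, Fcgr3, Fcer1g and Fcgr1 kept their direction and their call in each of the 15 alternative fits. The libraries were also scaled to the summed T cell markers, which are higher in the DB2313 group. This moved the median of all tested genes by -0.59. The 7 log2 fold changes then ran from -1.55 for Tyrobp to -0.72 for Fcgr4. Under this scaling 5 of the 7 genes passed 2-fold on the lower side, as did 2514 of all 14883 tested genes.

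**Figure D2:**
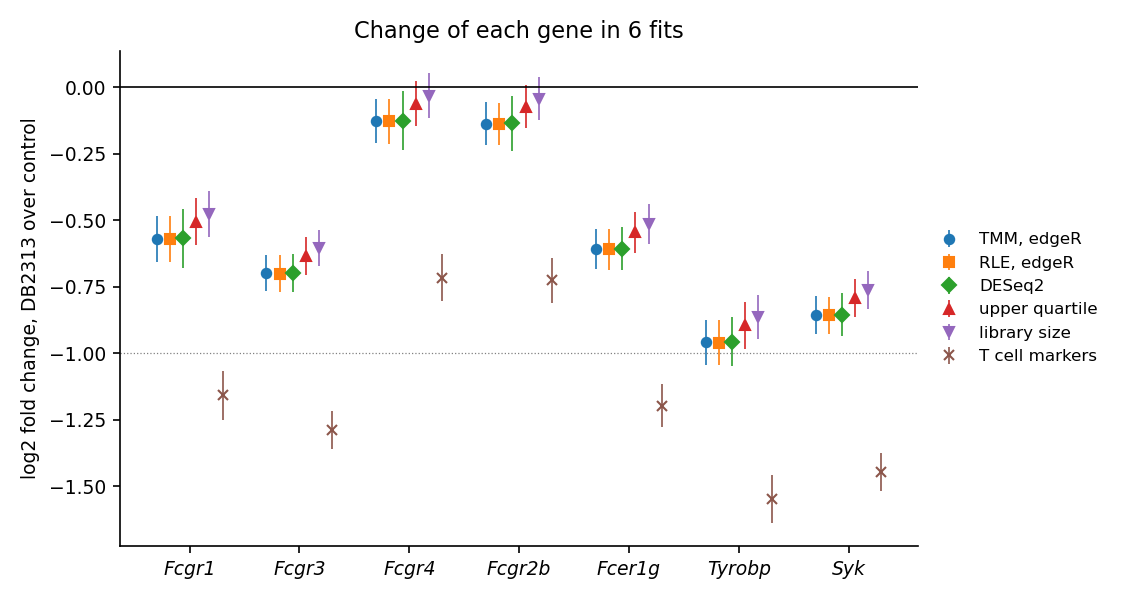
Log2 fold change of the 7 genes (DB2313 over control, vertical axis) in 6 fits, with bars of 1.96 standard errors and a dotted line at 2-fold lower. Fcgr2b and Fcgr4 sit close to 0 under library size scaling (-0.043 and -0.033), and scaling to the T cell markers puts every gene lower, at -1.55 for Tyrobp.

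Promoter sequence is shown for the genes whose RefSeq start region holds the core GAGGAA, a short form of the PU.1 binding motif, since the inhibitor used in the study acts on that factor. The letters GAGGAA and TTCCTC, the same core on the opposite strand, were searched in the 250 bases before each start. A RefSeq entry (GRCm38.p6) was found for 6 of the 7 genes, Tyrobp being the one without. The core occurred before a start of Fcgr1, Fcgr3, Fcgr4 and Syk. It did not occur in the windows of Fcgr2b and Fcer1g. Among 27025 genes with an entry, 25.9% had the core in a window. Each stretch below is printed 5′ to 3′ on the strand of its gene, with the core in capitals.
Fcgr1, chr3:96294002-96294041, minus strand: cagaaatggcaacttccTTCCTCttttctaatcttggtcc
Fcgr3, chr1:171059395-171059426, minus strand: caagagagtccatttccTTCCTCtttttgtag
Fcgr4, chr1:171018887-171018925, plus strand: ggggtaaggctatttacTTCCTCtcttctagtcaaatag
Syk, chr13:52596856-52596881, plus strand: ttgcttgctgacactttGAGGAAaag
The core ended 50 bases before the start in Fcgr1, 17 in Fcgr4 and 4 in Syk, where it preceded only 1 of the annotated starts. In Fcgr3 the same core ended 10 bases before the start whose window is printed and 1 base before another annotated start. The printed windows of Fcgr3 and Syk lie inside the gene bounds given above, so those starts are internal to the genes. In the 3 receptor genes it was read as TTCCTC on the strand of the gene, and in Syk as GAGGAA. Among the 6 genes with an entry, the core was present in genes with a large fall (Syk, Fcgr3, Fcgr1) and in one with a small fall (Fcgr4), and absent from one of each kind (Fcer1g and Fcgr2b).

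Relative to each other, the receptors changed in make-up. Counts per length (RPKM, the CPM divided by the gene length), the only scale used here to compare different genes, put Fcgr3 first among the receptors in both groups, at 238.2 RPKM in the control and 146.7 RPKM in the DB2313 group. Fcgr4 followed at 76.5 and 70.0 RPKM, Fcgr1 at 50.3 and 33.9 RPKM, and Fcgr2b at 20.2 and 18.3 RPKM. The order of the 4 receptors was the same in both groups. These levels rest on the deposited gene length, which was 5790 bases for Fcgr2b, 9362 for Syk and 1736 for Fcgr3. The annotated protein-coding transcripts of these genes held 3708, 6073 and 1627 different stretches of 50 bases. Where the deposited length exceeds that of the transcripts present, the level of a gene per length, and its share, is understated. The adaptors were more abundant than any receptor on this scale, with Tyrobp at 670.5 and 345.0 RPKM and Fcer1g at 409.5 and 268.5 RPKM. Syk had 29.5 to 31.0 RPKM in the control libraries, above Fcgr2b at 19.5 to 20.6 RPKM. In the DB2313 libraries Syk had 16.2 to 16.8 RPKM and lay below Fcgr2b at 17.9 to 18.9 RPKM.

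As a share of the summed length-scaled level of the 4 receptors, Fcgr3 made up 61.6%, 61.3% and 62.6% in the control libraries and 54.3%, 54.6% and 54.7% in the DB2313 libraries. Fcgr4 rose in this share from 19.9% ± 0.542 to 26.0% ± 0.191 (SD, n = 3 each), with no overlap between libraries. Fcgr2b made up 5.24% ± 0.240 in the controls and 6.82% ± 0.0332 with DB2313, again without overlap. The share of Fcgr1 was 13.1% ± 0.260 in the controls and 12.6% ± 0.282 with DB2313, where control replicate 1 lay within the range of the DB2313 libraries.

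**Figure D3:**
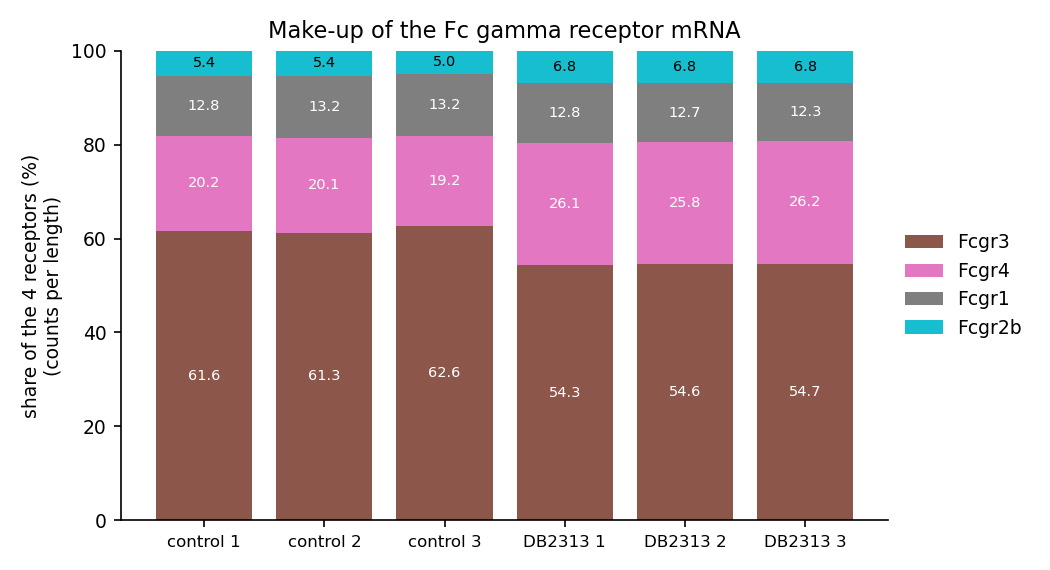
Share of each Fc gamma receptor in the summed counts per length of the 4 receptors (vertical axis, %), with 1 stacked bar per library. Fcgr3 takes 61.3% to 62.6% of each control bar and 54.3% to 54.7% of each DB2313 bar, and the Fcgr4 segment is larger in the DB2313 bars.

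The balance of the inhibitory against the activating receptors is a ratio within each library and does not depend on the scaling. The log2 ratio of Fcgr2b counts to the summed counts of Fcgr1, Fcgr3 and Fcgr4 was -2.41, -2.41 and -2.54 in the control libraries and -2.03, -2.02 and -2.01 in the DB2313 libraries. The DB2313 libraries were all higher, with a mean difference of 0.44 on the log2 scale, or 1.35-fold (two-sided exact permutation test, p = 0.1). With 3 samples against 3, the exact test cannot give a p under 0.1. The per-length ratio of the Fcer1g chain to the sum of the 3 activating receptors was 1.12 in the controls and 1.07 with DB2313, and the groups did not overlap (two-sided exact permutation test, p = 0.1). Fcgr3 makes up most of that sum.

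Of the 21 pairs of genes, 18 had within-library ratios that did not overlap between the groups (two-sided exact permutation test, p = 0.1 and adjusted p = 0.117 for each of the 18). The share of such pairs among other tested genes was not computed, so the count of 18 has no background. Taken singly, 53.1% of tested genes did not overlap in either direction. The pairs also share genes, so they are not independent. The widest of the 21 pairs was Fcgr4 to Tyrobp, which was 0.83 higher in the DB2313 group on the log2 scale, followed by Fcgr2b to Tyrobp at 0.82. Fcgr4 to Syk differed by 0.73 and Fcgr2b to Syk by 0.72. Within the chromosome 1 cluster, the ratio of Fcgr3 to Fcgr4 differed by -0.57. Fcgr2b and Fcgr4 kept nearly the same ratio, 1.22 in the controls and 1.21 with DB2313 (exact permutation test, p = 0.7). Fcgr1 to Fcer1g (exact p = 0.4) and Tyrobp to Syk (exact p = 0.3) also overlapped between the groups.

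The neighbouring genes were not all lower after TMM scaling. Fcgr2b, Fcgr4 and Fcgr3 lie within 106.3 kb of chromosome 1, and Fcer1g extends the stretch to 275.7 kb. In this cluster Fcgr4, with its small change, lies between Fcgr2b and Fcgr3, and the gene just before Fcgr2b, the intracellular Fc receptor-like Fcrla, was higher (log2 fold change 0.80, edgeR adjusted p = 0.0067). Hcst, also called DAP10, an adaptor without an ITAM that lies 126 bases from Tyrobp, was higher by 0.20 (edgeR adjusted p = 0.0171).

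Some sequence is shared between these genes. Of the stretches of 50 bases in the annotated transcripts of Fcgr3, 10.2% occur in Fcgr2b, and 10.7% of those of Fcgr2b occur in another gene, Fcgr3 among them. How the authors' counting treated such reads is not given in the sources used here, so the values of Fcgr2b and Fcgr3 are less certain in this respect. The other 5 genes shared no stretch of 50 bases with another gene. Genes that overlap Fcgr2b, Fcgr3 or Fcgr4 had at most 4 counts in any library.

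Because macrophage markers were lower as well, each gene was also set against their summed counts within each library. All 7 were then higher in the DB2313 group, with no overlap between the groups (two-sided exact permutation test, p = 0.1 for each). This was so for 91.6% of all tested genes, whose median difference on this scale was 1.36, so the count of 7 is near the background and all 7 lay under that median. On the log2 scale the differences were 1.22 for Fcgr4, 1.21 for Fcgr2b, 0.77 for Fcgr1, 0.73 for Fcer1g, 0.64 for Fcgr3, 0.49 for Syk and 0.38 for Tyrobp. Lysozyme 2 (Lyz2) was the most abundant macrophage marker and fell from 7702 to 2084 CPM. Without Lyz2 in the sum, the differences were 0.74 for Fcgr4, 0.73 for Fcgr2b, 0.30 for Fcgr1, 0.26 for Fcer1g, 0.17 for Fcgr3, 0.012 for Syk and -0.091 for Tyrobp, so the direction of Tyrobp turned. On that scale 5 of the 7 were higher with no overlap, as were 83.5% of all tested genes, whose median difference was 0.89. The part that the lower macrophage markers play in the fall of the 7 genes was not tested beyond these ratios.

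The other genes of the pathway were taken from lists. Among 10 tested Fc receptors and Fc receptor-like genes other than the 4 Fc gamma receptors, 2 were lower and 4 were higher, with a median log2 fold change of 0.27. Fcgrt, the neonatal Fc receptor that recycles IgG, fell from 70.6 to 19.0 CPM (log2 fold change -1.90, SE 0.07, edgeR adjusted p = 1.83e-16), a larger fall than that of any of the 7 genes. Fcrls, an Fc receptor-like protein of myeloid cells, fell from 15.6 to 6.15 CPM. The 4 that rose were Fcer1a, Trim21, Fcrla and Fcmr, and they are named here after their values were seen.

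Of 24 tested receptors that signal through Fcer1g or Tyrobp, or that are close to them, 15 were lower and 4 were higher, with a median log2 fold change of -0.64. The C-type lectin Clec4d had a log2 fold change of -1.35, from 124.3 to 48.8 CPM. Nfam1, which carries its own ITAM, fell from 208.4 to 99.6 CPM, and Clec5a, Cd200r4 and Sirpb1b also passed 2-fold on the lower side. Clec4n, also called Dectin-2, was the most abundant of the list per length and had 520.3 CPM in the controls and 514.9 CPM with DB2313 (log2 fold change -0.01, edgeR adjusted p = 0.733). Its direction and call depended on the scaling. The log2 fold change was 0.080 under scaling to the library size (edgeR adjusted p = 0.0341), 0.049 under upper quartile scaling (edgeR adjusted p = 0.23) and -0.60 under scaling to the T cell markers (edgeR adjusted p = 1.79e-13). Trem2, a Tyrobp partner of macrophages, was higher by 0.55 on the log2 scale (117.7 to 172.5 CPM), as were Klrd1, Ncr1 and Gp6, all 4 of them named after their values were seen.

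Of 4 receptors with a single-tyrosine hemITAM or, in Cd300lf, an inhibitory tail, 3 were lower and none was higher. Clec7a, or Dectin-1, fell from 273.9 to 111.8 CPM (log2 fold change -1.29), and Clec9a, also past 2-fold, was under 10 CPM in both groups. By contrast, all 8 genes of a list of T and B cell ITAM chains, Hcst and the kinase Zap70 were higher, with a median log2 fold change of 0.62. The list included Cd3d, which rose from 169.7 to 283.2 CPM.

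Among 40 kinases and relays downstream of ITAMs, 25 were lower, 6 were higher and 9 did not pass the test, with a median log2 fold change of -0.37. Fgr, a Src family kinase of myeloid cells, fell from 61.6 to 14.5 CPM (log2 fold change -2.09). Lck, the Src family kinase of T cells, was the most abundant of the list per length and rose from 338.8 to 527.9 CPM. Lck was no longer called under scaling to the T cell markers. It is itself one of these markers, so that scaling is no independent check on its rise. Lat, Plcg1, Fyn and Lcp2 were also among those that rose, and they are named after their values were seen.

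In a list of 26 genes of phagocytosis and the actin skeleton, 21 were lower and 1, Rac2, was higher, with a median log2 fold change of -0.26. Myo1f, a myosin of leukocytes, fell from 318.6 to 145.3 CPM and Gsn, the actin-severing protein gelsolin, from 286.9 to 133.1 CPM. Cfl1 (cofilin), the most abundant of that list per length, had a log2 fold change of -0.17. Of 22 brakes on ITAM signalling, 16 were lower and 4 were higher, with a median log2 fold change of -0.42. The inhibitory receptors Pirb and Sirpa fell by 1.15 and 1.08 on the log2 scale, and the phosphatase Ptpn6 (SHP-1) by 0.58.

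The rises in these lists depended on the scaling. Under scaling to the T cell markers, which moves the median of all tested genes down, the other Fc receptors had 5 genes called lower and 0 higher. The list of T and B cell ITAM chains, Hcst and Zap70 had 3 higher and 2 lower (median log2 fold change 0.03). Cd3d, Cd3e, Cd3g, Cd247 and Zap70 of that list are themselves T cell markers that set the scale. A median near 0 is therefore largely built into this scaling and tests nothing. Under the same scaling 37 of 40 kinases and relays were lower and 0 higher. The phagocytosis genes had 26 of 26 lower and 0 higher, and the brakes 21 of 22 lower and 1 higher. For the receptors that use Fcer1g or Tyrobp the counts were 19 of 24 lower and 1 higher.

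**Figure D4:**
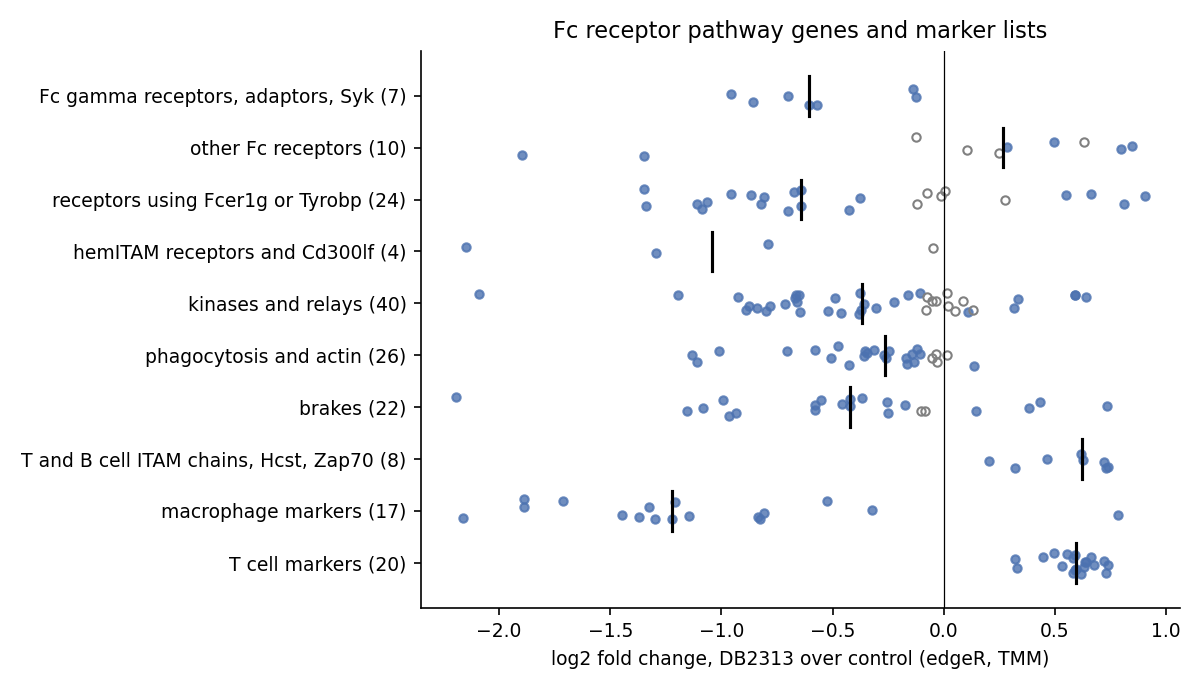
Log2 fold change (DB2313 over control, horizontal axis) of every tested gene in 10 gene lists, with filled points for an adjusted p under 0.05, open points otherwise, and a vertical bar at each median. The 7 Fc receptor and ITAM genes have a median of -0.61, between the macrophage markers (-1.22) and the T cell markers (0.59).

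For each gene the 3 protein-coding genes with the most similar profile over the 6 libraries were found among 9529 genes, by the root mean square difference of centred log2 CPM values. This measure follows the size of the difference between groups, so it says nothing of shared control. The nearest genes were Cacnb3, Vat1 and Cat for Fcgr1 (0.01 to 0.03 on the log2 scale) and Car2, Smpdl3a and Hacd4 for Fcgr3. Ywhab was near to both Fcgr2b and Fcgr4, with Snx1 and Med1 beside Fcgr2b, and Fbxo42 and Abca7 beside Fcgr4. Fcer1g had Ric1, Cacnb3 and Fcgr1 itself as its nearest genes, at a difference of 0.03 for Fcgr1. Rab7b, Hfe and Pld4 were nearest to Tyrobp, and Sorl1, Fes and Notch2 to Syk.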

How the data were processed

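The authors deposited raw counts per gene for the 6 libraries, with gene coordinates, lengths and biotypes in the same table. The study's methods name a HiSeq sequencer and LifeScope, whereas the submitters' processing notes name CASAVA 1.8, HISAT2 2.0.5 and featureCounts 1.5.0-p3. Build, annotation and strand setting are not given in the sources used here. Of 54409 genes shared with GENCODE M21, 98.3% had the coordinates of GRCm38, including all 7 genes described. Samples were grouped by DB2313 treatment from the labels.

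Genes were filtered with filterByExpr, scaled with TMM and tested with the quasi-likelihood test of edgeR 4.0.16 in R 4.3.3, with Benjamini-Hochberg adjustment over 14883 genes and calls at an adjusted p under 0.05. CPM values use the TMM scaling. RPKM divides them by the deposited gene length. Exact permutation tests were two-sided. The library totals set the counting precision, and the reads carry no molecular identifiers, so they are not independent molecules. The script was checked on simulated data.

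The members and gene lists were chosen with earlier results of these data known. From each pathway list up to 5 genes past 2-fold and reaching 10 CPM in one group or the other, and the most abundant gene per length, were named, plus the 3 nearest profiles of each member. Alternatives were DESeq2 1.42.0, other scalings and filters, a replicate block, protein-coding genes only and leaving out each library. Some genes that this rule would name are not reported here.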

Additional observations from a re-analysis of the deposited data

How the results depend on the processing

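Tyrobp, Syk, Fcgr3, Fcer1g and Fcgr1 kept direction and call in all 15 alternatives. Leaving out 1 library gave -1.0 to -0.91 for Tyrobp, -0.87 to -0.83 for Syk, -0.72 to -0.67 for Fcgr3, -0.66 to -0.58 for Fcer1g and -0.61 to -0.53 for Fcgr1 (log2 fold changes). Fcgr2b lost its call under library size scaling (-0.043) and upper quartile scaling (-0.074), and ranged from -0.16 to -0.12 with 1 library left out, losing the call without control replicate 2. Fcgr4 lost it in DESeq2 (-0.13), under library size scaling (-0.033) and upper quartile scaling (-0.063), and ranged from -0.15 to -0.11 with 1 library left out, keeping the call in 2 of 6 such fits. The cause was not tested. Scaling to the T cell markers took the genes past 2-fold from 0 to 5. The ratio of Fcgr2b to Fcgr4 ranged from -0.026 to 0.00052 on the log2 scale with 1 library left out, turning sign without control replicate 2. Tyrobp relative to the macrophage markers turned to -0.091 without Lyz2. Clec4n turned to 0.080 under library size scaling and to 0.049 under upper quartile scaling. Over all genes, 3667 were called lower and 3096 higher, against 2852 and 4931 under library size scaling, 3102 and 4319 under upper quartile scaling, and 11514 and 166 under T cell marker scaling.

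Samples with the same replicate number did not deviate together (correlations of -0.02, -0.03 and -0.04), so the numbers were not taken to pair the samples. With the replicate block, the log2 fold change was -0.14 for Fcgr2b (edgeR adjusted p = 0.0188) and -0.13 for Fcgr4 (edgeR adjusted p = 0.0372), and the block changed no call among the 7 genes.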
